A study of Mus musculus with 4 samples.

Results

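Ribosomal protein genes encode the protein subunits of the cytosolic ribosome, and their spliced messages have been copied back into the mouse genome many times as processed pseudogenes. Members were taken by gene name: symbols of the Rpl and Rps series, Rplp0, Rplp1, Rplp2 and Rpsa as genes, and the same symbols with the ending -ps as pseudogenes. The names came to 60 genes and 59 pseudogenes, 119 of the 13067 gene names in the deposited m6A peak tables. Members held 138 of 21031 peaks in KO cells, 91 of 16709 peaks in WT cells and 60 of 6050 peaks that differed between the genotypes. Of the 60 gene names, Rps12l1, Rps3a2 and Rps4l are pseudogenes in RefSeq. They stayed with the genes by name and were left out of counts that say protein-coding, of which RefSeq lists 84. Names do not settle where a read came from: a gene and its processed copies are nearly identical in sequence, so assignment between them is uncertain throughout.

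N6-methyladenosine (m6A) was mapped by m6A-seq, which sequences RNA fragments pulled down by an anti-m6A antibody (IP) alongside the poly(A) RNA they came from (input). The cells were C57BL/6 mouse bone marrow cells grown into macrophages for 7 days with macrophage colony-stimulating factor (M-CSF). KO cells were LysM-cre, Mettl3fl/fl, with Cre under the control of the lysozyme 2 gene, which is active in myeloid cells, and WT cells were Mettl3fl/fl, so both genotypes carry floxed Mettl3. Each genotype had 1 IP and 1 input library, 4 in all. No difference has a replicate check and no p-value across genes is given. The files used hold no read totals, so the depth is unknown.

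Mettl3, the catalytic subunit of the m6A writer, could not be checked as a target. It had 1 peak in KO cells (chr14:52296090-52296658, mm10, 3′ UTR, 1.35-fold over input), no peak in WT cells and no listed input level. Of 8 macrophage markers, 5 had a listed input level, at 58.4 to 6615 FPKM (a read density corrected for transcript length and library size) in KO cells and 40.6 to 10533 FPKM in WT cells. Of 5 neutrophil markers, 2 had a listed level, summing to 137 FPKM in KO cells and 233 FPKM in WT cells. Of the 4 B cell markers only Cd79b had one, at 0.734 FPKM in KO cells and 1.12 FPKM in WT cells, and none of the 4 T cell or 3 erythroid markers did. Levels are listed only for genes with a differential peak. The part of other cell types in the results below was not tested.

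As background, each ribosome is built from a small (Rps) and a large (Rpl) subunit, and cells make the proteins of both in near equal amounts. Their messages are short and abundant, and many begin with a C and an unbroken run of pyrimidines, the 5′ terminal oligopyrimidine (TOP) element, through which mTOR signalling and the La-related protein LARP1 set their translation. Mettl3 deposits m6A mostly near stop codons and in 3′ UTRs of longer messages. Several ribosomal protein genes also carry small nucleolar RNA genes in their introns.

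The TOP element was looked for at RefSeq starts (GRCm38.p6), as a C at the first base followed by at least 4 C or T, read on the transcribed strand only. Of the 84 protein-coding members, 64 had a start in the RefSeq promoter table. The run was present in 14 of 64 (21.9%, 95% interval 12.5 to 34.0), against 813 of all 27025 genes (3.01%). The 27025 are not limited to protein-coding genes, as the 64 are. RefSeq starts can lie some bases away from the start used in these cells, so a start without the run says only that these letters are not at this base. The 9 genes below have both the run and a differential m6A peak and are shown because they are the members whose TOP element can be read at the annotated start. Each line gives 10 bases before the start in lower case, then the run in capitals, then the bases that follow, up to 20 bases from the start.
Rpl14: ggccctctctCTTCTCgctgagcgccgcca (chr9:120571507-120571536, plus strand)
Rpl28: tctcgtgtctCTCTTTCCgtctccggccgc (chr7:4792955-4792984, plus strand)
Rpl35a: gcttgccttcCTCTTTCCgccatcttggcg (chr16:33056472-33056501, plus strand)
Rplp2: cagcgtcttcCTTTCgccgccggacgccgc (chr7:141447641-141447670, plus strand)
Rps10: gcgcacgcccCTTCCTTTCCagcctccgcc (chr17:27635225-27635254, minus strand)
Rps15a: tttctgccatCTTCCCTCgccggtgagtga (chr7:118116128-118116157, minus strand)
Rps18: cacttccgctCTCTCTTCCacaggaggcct (chr17:33955646-33955675, minus strand)
Rps27: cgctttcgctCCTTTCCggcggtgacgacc (chr3:90213629-90213658, minus strand)
Rps6: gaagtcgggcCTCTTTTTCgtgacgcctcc (chr4:86857348-86857377, minus strand)

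The run was 10 bases in Rps10, 9 in Rps18 and Rps6, and 5 in Rplp2, the shortest of these. A differential peak was present in 9 of the 14 genes with the run (64.3%, 35.1 to 87.2) and in 25 of the 50 genes with another start (50.0%, 35.5 to 64.5), and the intervals overlap.

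Ribosomal protein genes had m6A peaks in KO cells more often than in WT cells. A peak was called in 55 of the 84 protein-coding members in KO cells (65.5%, 54.3 to 75.5) and in 34 in WT cells (40.5%, 29.9 to 51.7). Over all 21900 protein-coding genes the shares were 41.2% in KO cells and 35.1% in WT cells. The KO share of the ribosomal protein genes thus lay above that of all genes, and the interval of the WT share includes that of all genes. Intervals on shares are exact binomial ones at 95% that take genes or peaks as independent and cover counting error only. Peaks were present in both lists for 32 of the 84, in KO cells only for 23, in WT cells only for Rpl39 and Rps2, and in neither list for 27. The matching shares over all protein-coding genes are not given here, so these counts are description only. In the KO list the Rpl39 site lay under a peak assigned to Snora69, a small nucleolar RNA gene inside Rpl39, so Rpl39 is absent there by name only.

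The genes seen only in KO cells spanned both subunits, among them Rplp1 of the ribosomal stalk, Rps27a, which is made as a fusion with ubiquitin, and Rps18, Rps24, Rps25 and Rps26. The genes with no peak included Rpsa, which is also known as a laminin receptor, Rpl5, whose protein binds MDM2 together with that of Rpl11, and Rpl3, Rpl4 and Rps3. Among paralogs, Rpl7l1 had peaks in both lists, at 2.24- and 1.63-fold over input in KO cells and 2.77-fold in WT cells. The Rps27l peak, 1.25-fold, and the Rpl3l peak, 7.08-fold, were in KO cells only and their false discovery rates were 0.121 and 0.142. Rps4l had 2 weak peaks in WT cells only, 1.81- and 1.77-fold, and Rpl39l had none. The single Rplp0 peak, in KO cells, lay inside Pxn and not in Rplp0, the scaffold of the stalk.

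Enrichment over input at ribosomal protein genes was modest in both lists. The fold values are the authors' own and are read within each list. Among the 83 KO peaks in genes the median was 1.76-fold (1.67 to 1.93), against 3.15-fold for the whole KO list. Among the 47 WT peaks it was 1.56-fold (1.34 to 1.85), against 3.74-fold for the whole WT list. The p-values did not follow the folds: 57.8% of the KO peaks and 29.8% of the WT peaks in these genes had a p of 1e-10 or lower, where the whole lists had 24.5% in KO cells and 30.8% in WT cells. At that p, 43 member genes kept a peak in KO cells and 13 in WT cells, while the whole lists held 4207 gene names in KO cells and 4166 in WT cells. At an enrichment of at least 4-fold the members numbered 12 of 57 in KO cells and 7 of 36 in WT cells, against 6383 of 11675 gene names in KO cells and 6075 of 9875 in WT cells over the whole lists.

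A few genes had larger folds. In KO cells Rpl7a led with 1220-fold, above 99.99% of that list, and Rpl18, Rps26, Rpl3l, Rps12l1 and Rps19 followed between 8.86- and 7.08-fold. Among these the Rps26, Rpl3l and Rps12l1 peaks had false discovery rates of 0.394, 0.142 and 0.228. Rpl28 had 6.58-fold, Rpl13 and Rpl31 5.90-fold and Rpl15 4.55-fold in KO cells. The Rpl31 peak lay in Npas2, and the Rpl15 peak in the overlap of Nkiras1 and Ube2e1. In WT cells Rps19, a gene mutated in human Diamond-Blackfan anaemia, led with 11.2-fold, followed by Rpl18 with 8.50-fold and Rpl22, Rpl27 and Rpl6 with 8.16-fold each. Rpl30 (7.14-fold), Rpl21 (6.12-fold), Rpl15 (3.74-fold), Rpl39 (3.57-fold) and Rpl10a (3.23-fold) completed the 10 most enriched in WT cells, the Rpl30 and Rpl10a peaks lying outside those genes. The WT peaks of Rpl22 and Rpl27 at 8.16-fold had a false discovery rate of 0.337, that of Rpl30 had 0.344 and that of Rpl21 had 0.127.

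KO peaks in ribosomal protein genes often had no WT counterpart. Of the 83 KO peaks, 32 shared at least 1 base with any WT peak (38.6%, 28.1 to 49.9), against 61.6% over the whole KO list. Of the 47 WT peaks, 34 shared a base with a KO peak (72.3%, 57.4 to 84.4), against 73.4% over the whole WT list.

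Differential peaks in ribosomal protein genes were almost all higher in KO cells, in a table where most peaks were lower. The table lists only peaks with a p under 0.05, so sites tested without a difference are unknown. A positive log2 ratio of KO over WT enrichment was listed for 44 of the 47 peaks in these genes in the authors' deposited table (93.6%, 82.5 to 98.7), where 30.4% of all 6050 peaks had one. The median log2 ratio in the authors' deposited table was 0.48 (0.43 to 0.56) for ribosomal protein genes and -0.40 for the whole table. A false discovery rate under 0.05 was given to 45 of the 47 and to 4815 of all 6050 peaks in the authors' deposited table. The peaks came from 42 genes, of which 40 were higher only, Rps2 was lower only and Rpl18 had peaks both ways. Both subunits did alike, with 25 of 27 peaks of large-subunit genes and 19 of 20 of small-subunit genes higher in the authors' deposited table.

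**Figure D1:**
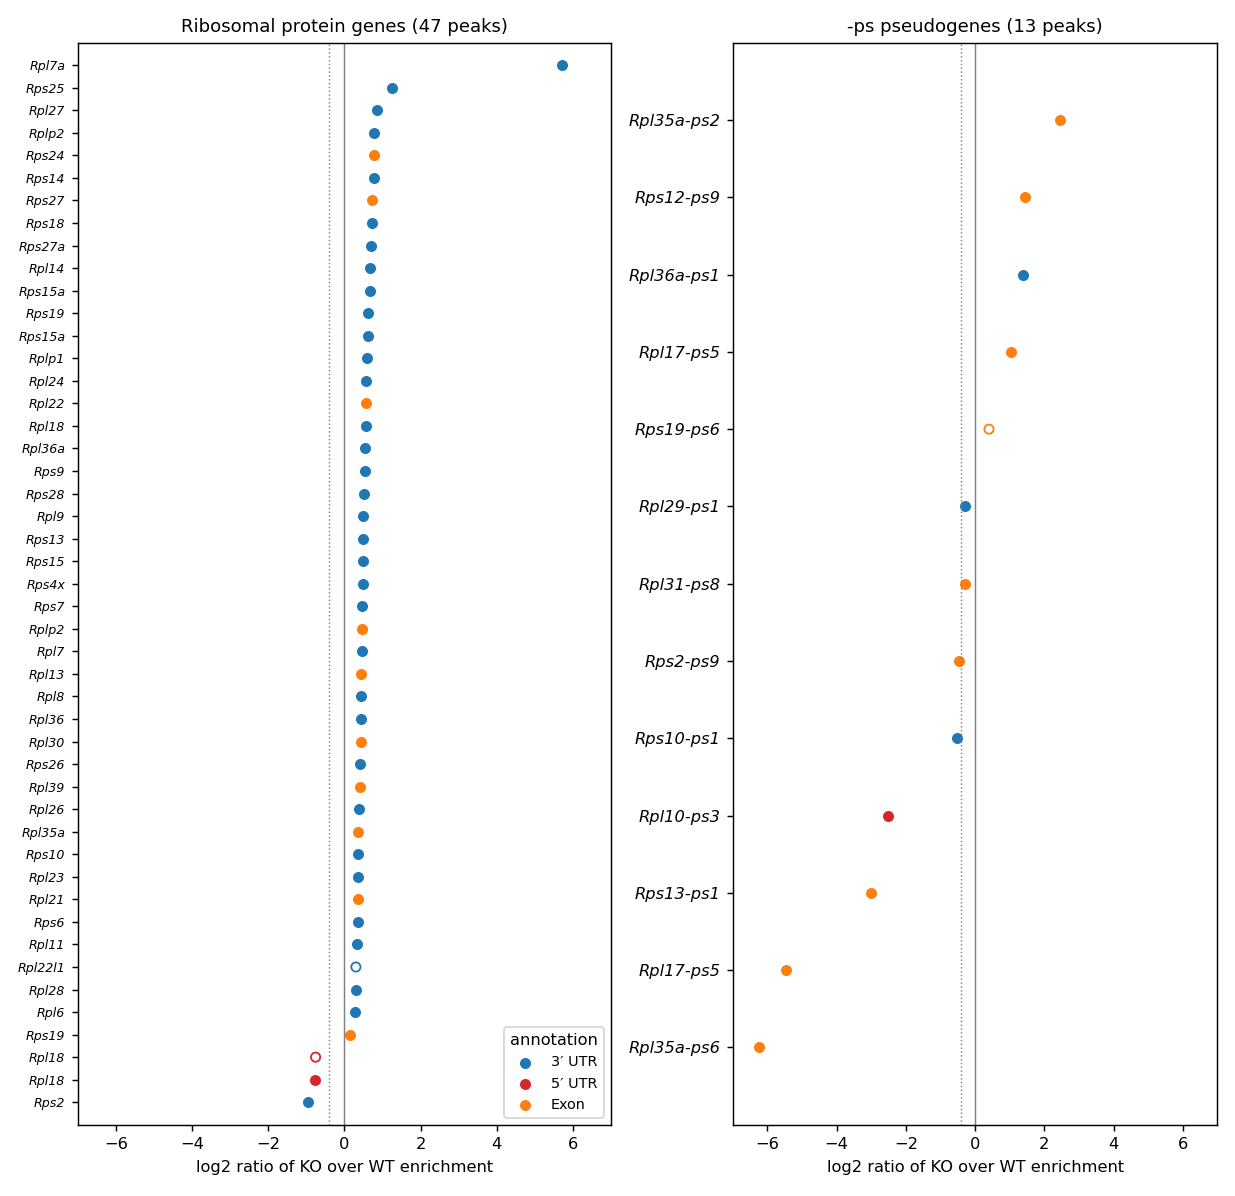
Log2 ratio of KO over WT enrichment (horizontal axis) at each differential peak of ribosomal protein genes (left, 47 peaks) and -ps pseudogenes (right, 13 peaks), coloured by annotation. Open points have a false discovery rate of 0.05 or more and the dotted line is the median of the whole table, -0.40; 44 of 47 gene peaks and 5 of 13 pseudogene peaks lie right of 0.

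The differences were small and alike in size. Of the 47 log2 ratios in the authors' deposited table, 40 lay between 0.25 and 0.8. The median of the 44 higher peaks was 0.49, a ratio of 1.41, in the authors' deposited table, against 0.62 for all 1838 higher peaks. Only Rpl7a and Rps25 reached a log2 ratio of 1, as 6.35% of all peaks in the authors' deposited table did, and no member gene reached -1, as 9.92% did. All 44 higher peaks lay on a KO peak, as did all 1838 higher peaks of the table, and 27 of the 44 also lay on a WT peak (61.4%, 45.5 to 75.6), against 64.7% of the 1838. At those 27 sites the authors' fold over input was larger in the KO list than in the WT list at 24 and smaller at 3, with medians of 1.91 in KO cells and 1.34 in WT cells. The 27 were picked for a KO over WT ratio above 0, so this count is no separate evidence of direction. Here alone, and where single sites are named, folds are set across the lists. The other 17 sites had a KO peak only, with folds of 1.34 to 1220 and a median of 1.74.

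Rpl7a, whose protein sits in the large subunit, stood far from the other members. Its 3′ UTR peak (chr2:26912665-26913318, mm10) had a log2 ratio of 5.70 in the authors' deposited table, a KO fold of 1220 and no WT peak. RefSeq also places a predicted locus, LOC115489588, under that peak. The Rpl7a input level was 50.9 FPKM in KO cells and 67.1 FPKM in WT cells. Without Rpl7a, 43 of 46 peaks were higher.

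Rps25, a small-subunit protein that several viral internal ribosome entry sites require, came next. Its 3′ UTR peak (chr9:44409351-44410158) had a log2 ratio of 1.26 in the authors' deposited table, with 2.75-fold enrichment in KO cells and no WT peak. Rpl27 (chr11:101445185-101445529, 3′ UTR) had a log2 ratio of 0.84 in the authors' deposited table. At that site its authors' fold ran the other way, 3.50 in KO cells and 5.10 in WT cells, where the WT peak had a false discovery rate of 0.0759. Rps24 (0.77), Rps14 (0.77), Rps27 (0.73), Rps18 (0.73) and Rps27a (0.69) followed by log2 ratio in the authors' deposited table. The peaks of Rps24 and Rps27 were annotated to exons and those of Rps14, Rps18 and Rps27a in the 3′ UTR. Rpl14 (0.68) completed the 10 highest genes in the authors' deposited table, with 2.90-fold enrichment in KO cells and no WT peak.

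Rplp1 and Rplp2 encode the stalk proteins P1 and P2, which form dimers on Rplp0 and recruit translation factors. The differential m6A peaks of both genes were higher in KO cells. Rplp1, the most abundant of the 42 genes with a listed level, had a log2 ratio of 0.59 in the authors' deposited table at its 3′ end (chr9:61913284-61913430), 1.59-fold enrichment in KO cells and no WT peak. Rplp2 had a 3′ UTR peak (chr7:141450983-141451378) with a log2 ratio of 0.79 in the authors' deposited table and folds of 2.72 in KO cells and 1.48 in WT cells. A second Rplp2 peak in exon 2, without a WT peak, had a log2 ratio of 0.45 in the authors' deposited table. Rps15a had 2 short peaks whose log2 ratios were 0.66 and 0.61 in the authors' deposited table. The first of these lay in Arl6ip1 and not in Rps15a. Rps19 had a log2 ratio of 0.63 in its 3′ UTR and of 0.15 in exon 3 in the authors' deposited table, the second being the smallest of the 44.

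Next above that were Rpl6 (0.26), Rpl28 (0.30), Rpl22l1 (0.30), Rpl11 (0.33), Rps6 (0.34), Rpl21 (0.35) and Rpl23 (0.35) by log2 ratio in the authors' deposited table. Rps6 is the ribosomal target of S6 kinases, and Rpl22l1 is a paralog of Rpl22, whose peak had a log2 ratio of 0.56 in the authors' deposited table. The Rpl22l1 peak had a false discovery rate of 0.105 in the authors' deposited table. Rpl6 was also among the sites with a smaller fold in KO cells, at 1.68 against 8.16 in WT cells.

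The 3 lower peaks lay in Rps2 and Rpl18. Rps2, whose protein lies at the entry side of the messenger RNA channel, had a 3′ UTR peak (chr17:24721644-24721899) with a log2 ratio of -0.97 in the authors' deposited table, no KO peak and 1.84-fold enrichment in WT cells. Its input level was 208 FPKM in KO cells and 221 FPKM in WT cells. Rpl18 had 2 neighbouring 5′ UTR peaks (chr7:45715726-45716780 and chr7:45716990-45717109) with log2 ratios of -0.77 and -0.76 in the authors' deposited table. Both also lie inside Sphk2, the sphingosine kinase gene that overlaps the start of Rpl18, so the transcript they come from is uncertain. The longer of them lay on peaks of 8.86-fold in KO cells and 8.50-fold in WT cells. The shorter, without a KO peak, had a false discovery rate of 0.112 in the authors' deposited table. The third Rpl18 peak, at the gene's 3′ end (chr7:45720281-45720836), had a log2 ratio of 0.56 in the authors' deposited table and folds of 1.95 in KO cells and 1.30 in WT cells. Leaving out the 2 peaks in Sphk2, 44 of 45 were higher (97.8%, 88.2 to 99.9).

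The direction of the ribosomal protein peaks was set beside that of other abundant transcripts, a comparison chosen after the data were seen. Among ribosomal protein genes, 28 of 29 peaks were higher in the authors' deposited table at a mean input of 100 FPKM or more and 16 of 18 below it. Outside the list, 152 of 198 differential peaks in genes averaging 100 FPKM or more were higher in the authors' deposited table (76.8%, 70.3 to 82.5), and 459 of 955 in genes of 20 to 100 FPKM (48.1%, 44.9 to 51.3). Position moved with direction too. Outside the list, 736 of 1199 peaks that ended within 100 bases of the gene's 3′ end were higher in the authors' deposited table (61.4%, 58.6 to 64.2), against 508 of 3358 elsewhere (15.1%, 13.9 to 16.4).

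With both held alike, the list came close to other genes at the 3′ end. Among genes of at least 100 FPKM, 17 of 18 ribosomal protein peaks at the 3′ end were higher in the authors' deposited table (94.4%, 72.7 to 99.9), against 110 of 124 outside the list (88.7%, 81.8 to 93.7). These intervals overlap. Away from the 3′ end, the list and other genes differed. Of the 29 ribosomal protein peaks at 100 FPKM or more, the 1 lower peak, in Rps2, lay at the 3′ end. All those away from the 3′ end were therefore higher. Outside the list, 33 of 62 peaks of that level away from the 3′ end were higher in the authors' deposited table (53.2%, 40.1 to 66.0). At any level, 19 of 21 ribosomal protein peaks away from the 3′ end were higher in the authors' deposited table (90.5%, 69.6 to 98.8). What part level and position have in the ribosomal protein counts was not tested.

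**Figure D2:**
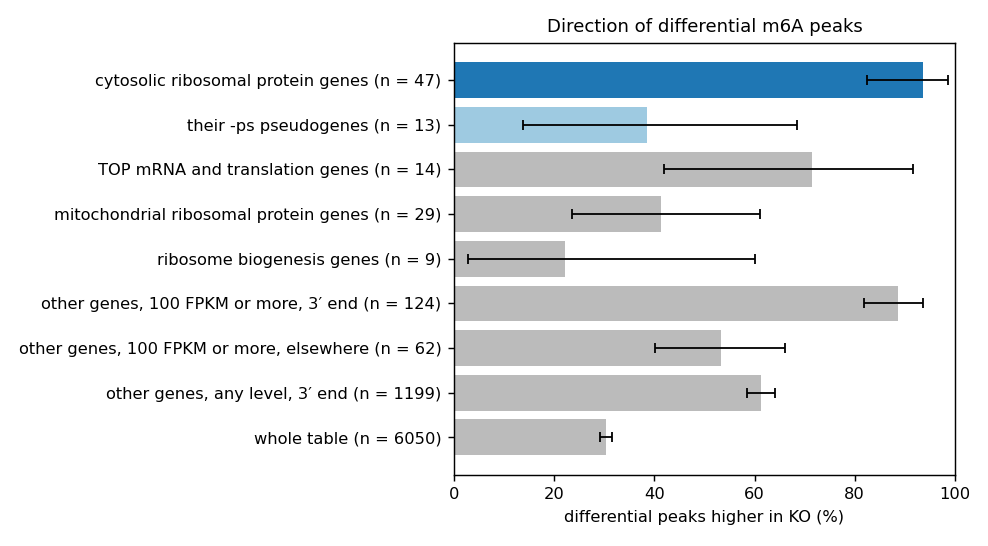
Share of differential peaks that were higher in KO cells (horizontal axis, percent) for ribosomal protein genes, their pseudogenes, related gene lists and other genes split by input level and position, with exact 95% binomial intervals as bars. The ribosomal protein genes (93.6%) and other abundant genes at the 3′ end (88.7%) lie far above the whole table (30.4%).

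**Figure D3:**
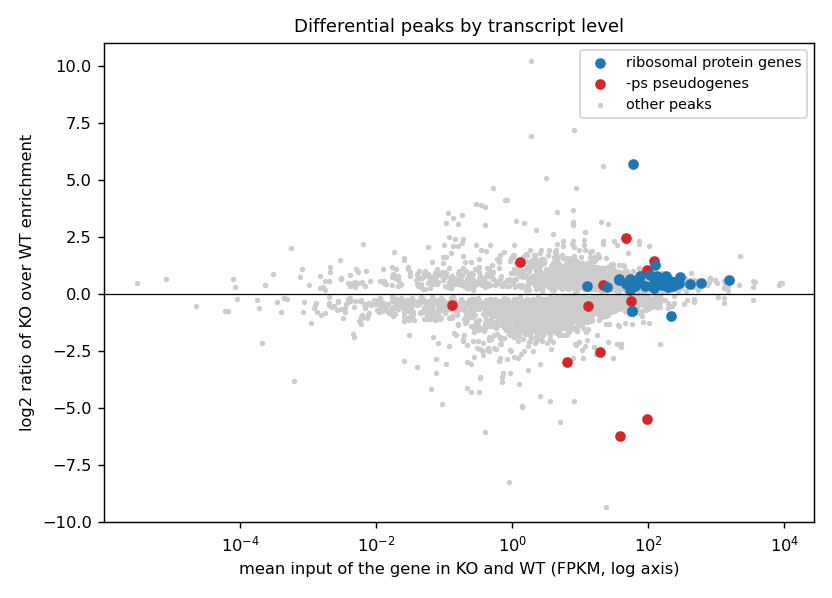
Log2 ratio of KO over WT enrichment (vertical axis) against the mean input level of the gene over both genotypes (horizontal axis, FPKM, log scale) for every differential peak with a listed level. Ribosomal protein genes (blue) lie at the abundant end in a narrow band just above 0, apart from Rpl7a at 5.70 and the lower peaks of Rps2 and Rpl18, and pseudogenes (red) scatter on both sides.

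Within the list the size of the ratio did not go with transcript level: Spearman's rho between a gene's median log2 ratio and its mean input was 0.04 over 42 genes, which share the same 4 libraries. The 11 peaks assigned to the 9 genes with a TOP run had log2 ratios of 0.30 to 0.79 in the authors' deposited table. Their median was 0.61 (0.344 to 0.735), an interval that includes the median of 0.48 over all ribosomal protein gene peaks. Among them, the Rps15a peak at 0.66 lay in Arl6ip1 and not in Rps15a. Small nucleolar RNA genes lie inside 30 of the 84 members (35.7%, 25.6 to 46.9) and in 1.70% of all protein-coding genes. A differential peak was listed for 10 of those 30 (33.3%, 17.3 to 52.8) and for 32 of the 54 without one (59.3%, 45.0 to 72.4), and the intervals overlap. Of the 84, 59 have at least 1 -ps copy in RefSeq, and 31 of these had a differential peak, against 11 of the 25 with none. Over all 84 members it was 42, and the share over all protein-coding genes is not given here.

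Other genes of the translation machinery were described in the same way, by counts and medians. Their peaks go by the assigned gene name, and whether each lies inside that gene is not given here. Of 5 ribosomal components under other symbols, Fau (0.33) and Rack1 (0.52) each had a higher peak in the authors' deposited table. Rpl36al was assigned 1 higher peak (0.38) and 2 lower ones (-0.86 and -0.84) there. The higher Rpl36al peak lay at chr12:69182731-69182878 and the lower ones apart from it, within chr12:69189867-69190197. The 2 lower entries cover almost the same bases and have false discovery rates of 0.0708 and 0.0832 in the authors' deposited table. Of 24 names on a list made up mainly of TOP messages and translation factors, 12 genes were listed. They had 10 of 14 peaks higher in the authors' deposited table (71.4%, 41.9 to 91.6). This interval overlaps that of the ribosomal protein genes. Whether the starts of these genes carry the TOP run is not given here. By assigned name, these peaks ranged in log2 ratio from 1.64 for Eef1a1 to -0.98 for Eef1g in the authors' deposited table. Eef1a1 is the elongation factor that delivers aminoacyl-tRNA, and Eef1g belongs to the complex that recharges it. A second peak assigned to Eef1g stood at 0.25 in the authors' deposited table. Mitochondrial ribosomal protein genes, which encode a separate ribosome, had 12 of 29 peaks higher in the authors' deposited table (41.4%, 23.5 to 61.1), with a median log2 ratio of -0.32. Of 25 ribosome biogenesis genes, 7 were listed, with 2 of 9 peaks higher in the authors' deposited table (22.2%, 2.81 to 60.0). The lowest was Nob1, the nuclease that finishes the small-subunit RNA, at -2.40 in the authors' deposited table.

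Most peaks in ribosomal protein genes were annotated to the 3′ UTR, 58 of 83 in KO cells (69.9%, 58.8 to 79.5) and 32 of 47 in WT cells (68.1%, 52.9 to 80.9). The whole lists had 64.1% in KO cells and 59.6% in WT cells. Among peaks that overlapped their gene, 35 of 76 in KO cells (46.1%, 34.5 to 57.9) and 22 of 43 in WT cells (51.2%, 35.5 to 66.7) ended within 100 bases of its annotated 3′ end. Over the whole lists this held for 24.7% in KO cells and 19.2% in WT cells. The peaks were also short, with a median exonic length of 241 bases in KO cells and 210 bases in WT cells, against 330 and 391 bases over the whole KO and WT lists. Ribosomal protein messages have short 3′ UTRs, so closeness to the stop codon and closeness to the end of the message cannot be told apart here.

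**Figure D4:**
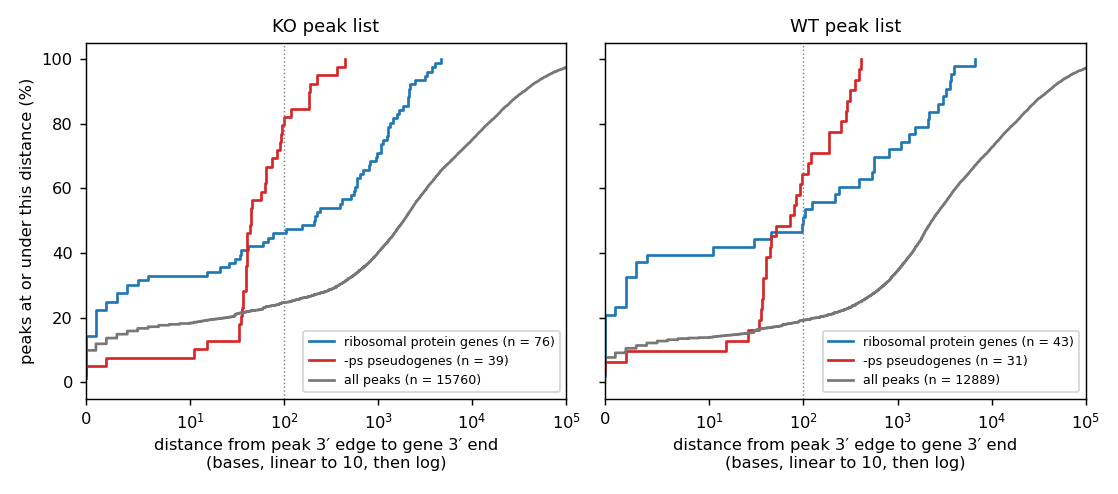
Cumulative share of peaks (vertical axis, percent) by distance from the peak's 3′ edge to the annotated 3′ end of its gene (horizontal axis, bases, linear to 10 and then logarithmic) in the KO list (left) and the WT list (right). At 100 bases (dotted line) the ribosomal protein genes stand at 46.1% in KO cells and 51.2% in WT cells and all peaks at 24.7% and 19.2%; negative distances, where a peak passes the end, are drawn by their size.

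Transcript levels of most listed ribosomal protein genes differed little between the genotypes. The 42 genes with a differential peak had input levels of 21.9 to 1580 FPKM in KO cells (median 138) and 3.35 to 1524 FPKM in WT cells (median 133). The log2 difference of KO minus WT, on the log2(FPKM + 1) scale, had a median of -0.03 (-0.05 to -0.004), and 34 of the 42 lay within 0.1 of 0. Over all 3679 listed genes the median was 0.07. Rplp1 had 1580 FPKM in KO cells and 1524 FPKM in WT cells, Rps15 573 and 606 FPKM, and Rpl36 405 and 417 FPKM. Only 1 of the 42 differed by more than 1.5-fold (2.38%, where 2.01% of all listed genes did), and it was higher in KO cells, as 1.22% of all listed genes were.

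That gene was Rpl21, at 21.9 FPKM in KO cells and 3.35 FPKM in WT cells, each from 1 library. The next largest increases were in Rps27a, at 143 FPKM in KO cells and 114 FPKM in WT cells, and Rps26, at 167 and 144 FPKM. Rps28, at 203 FPKM in KO cells and 195 FPKM in WT cells, and Rplp1 completed the 5 largest. The largest decreases were in Rpl7a, Rpl24 (196 FPKM in KO cells and 224 FPKM in WT cells), Rpl30 (44.8 and 49.4 FPKM), Rpl22l1 (23.5 and 25.8 FPKM) and Rpl18 (55.4 and 59.5 FPKM).

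**Figure D5:**
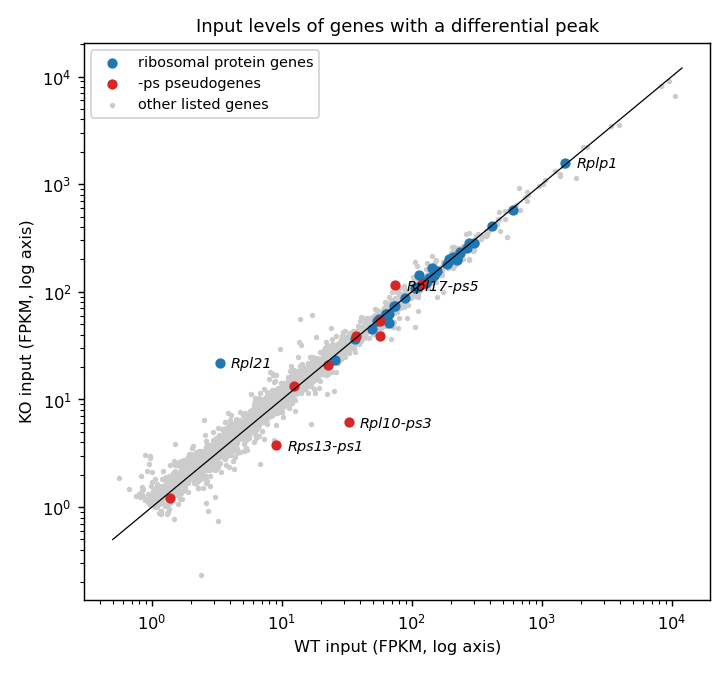
Input level in KO cells (vertical axis, FPKM, log scale) against WT cells (horizontal axis, FPKM, log scale) for genes with a differential peak and a mean of at least 1 FPKM, with the line of equal levels. Ribosomal protein genes (blue) lie along the line up to Rplp1 at 1580 FPKM in KO cells, and Rpl21 and the pseudogenes Rpl10-ps3 and Rps13-ps1 lie away from it.

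Other lists gave medians on the same scale of 0.17 for 7 ribosome biogenesis genes, all above 0, and 0.10 for 25 mitochondrial ribosomal protein genes. The median was -0.07 for 12 genes of the list made up mainly of TOP messages and translation factors.

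The pseudogenes did not share the one-sided pattern of the genes. Of the 306 -ps pseudogenes in RefSeq, peaks were assigned to 47 in KO cells and 37 in WT cells, 25 of them in both lists. The matching shares over all pseudogenes are not given here. Their enrichment was nearer to that of all peaks, with a median of 3.54-fold (2.31 to 4.58) in KO cells and 3.66-fold (2.68 to 5.61) in WT cells. Processed copies have a single exon. Exons held 41 of 55 KO peaks (74.5%) and 33 of 44 WT peaks (75%), but some of these were exons of multi-exon host genes. The hosts were Phf2 and Rabep1 in WT cells and Ppargc1b in both lists. Of the peaks that overlapped the named pseudogene, 32 of 39 in KO cells (82.1%, 66.5 to 92.5) and 20 of 31 in WT cells (64.5%, 45.4 to 80.8) ended within 100 bases of its 3′ end. The other 16 KO peaks and 13 WT peaks lay outside it, most of them in a host or neighbouring gene.

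Such peaks were among those with the largest folds. In KO cells Rpl31-ps16 (14.2-fold), Rpl12-ps2 (13-fold) and Rps2-ps10 (11.8-fold) led, but their peaks lay in Camkmt, the neutral amino acid transporter gene Slc1a4 and Ppargc1b, a coactivator of mitochondrial genes. Rpl17-ps3, at 9.45-fold in KO cells, was the most enriched whose peak lay in the pseudogene itself. Rps13-ps4 and Rps15-ps2 (8.27-fold) and Rpl38-ps1 and Rps13-ps5 (7.08-fold) followed in KO cells, also inside the copy, and Rpl29-ps1 (6.49-fold) inside Pigk. The Rps13-ps4 peak also lies in Taf1c, so the transcript it comes from is uncertain. The false discovery rate was 0.394 for Rps15-ps2 and 0.689 for Rpl38-ps1 and Rps13-ps5. In WT cells Rpl35a-ps6 (59.2-fold) and Rpl17-ps5 (29.9-fold) led, both with peaks in the pseudogene, and Rps13-ps1 (16.0-fold) and Rpl10-ps3 (13.8-fold) had theirs there too. Rps2-ps10 (16.3-fold), Rps12-ps3 (10.6-fold), Rpl29-ps1 (8.29-fold) and Rps2-ps9 (8.16-fold) had WT peaks outside the copy, in Ppargc1b, Pdzd8, Pigk and Ilrun.

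Of 13 differential pseudogene peaks, 5 were higher and 8 lower in the authors' deposited table (38.5% higher, 13.9 to 68.4, where 30.4% of all peaks were). Set against the table's median ratio instead of 0, 7 were higher and 6 lower. Their log2 ratios spanned -6.25 to 2.44 in the authors' deposited table, wider than in the genes apart from Rpl7a. The Rpl35a-ps6 peak (chr5:123255509-123255813), which also lies in Wdr66, had a log2 ratio of -6.25 in the authors' deposited table and no KO peak, at input levels of 39.1 FPKM in KO cells and 37.1 FPKM in WT cells. Rps13-ps1 (-3) and Rpl10-ps3 (-2.53) also had no KO peak at the site in the authors' deposited table. Their input levels were lower in KO cells as well, at 3.75 FPKM in KO cells and 9.07 FPKM in WT cells for Rps13-ps1 and 6.16 and 32.8 FPKM for Rpl10-ps3.

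Rpl17-ps5 had adjoining peaks in opposite directions. The peak at chr5:22612628-22612920 was in the KO list only and had a log2 ratio of 1.04, and the one at chr5:22612978-22613182 was in the WT list only and had a log2 ratio of -5.47, both in the authors' deposited table. The KO peak ended 37 bases from the 3′ end of the copy and the WT peak 387 bases from it. The input level was 115 FPKM in KO cells and 74.7 FPKM in WT cells, so 1 pseudogene was higher and 2 were lower in KO cells by more than 1.5-fold among the 10 with a listed level averaging 1 FPKM or more (30%, where 2.01% of all listed genes were).

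Rpl35a-ps2 (2.44), Rps12-ps9 (1.45), Rpl36a-ps1 (1.39) and Rps19-ps6 (0.40) were the other higher pseudogenes by log2 ratio in the authors' deposited table, the last with a false discovery rate of 0.0513. Rps12-ps9 lies in Chmp1a and Rps19-ps6 in Tecpr2, so reads of those genes cannot be told apart from theirs. Small decreases were given to Rps10-ps1 (-0.54), Rps2-ps9 (-0.48), Rpl31-ps8 (-0.31) and Rpl29-ps1 (-0.30) in the authors' deposited table. Of these, Rps10-ps1, Rps2-ps9 and Rpl29-ps1 lay outside the named copy, in Golph3l, Ilrun and Pigk. In 7 cases a parent gene and a copy were both listed. Direction was shared in 4 of them, Rpl35a-ps2, Rpl36a-ps1, Rps19-ps6 and Rps2-ps9, and opposite in 3. The Rpl35a, Rps10 and Rps13 peaks were at 0.36, 0.36 and 0.50 by log2 ratio in the authors' deposited table, where Rpl35a-ps6, Rps10-ps1 and Rps13-ps1 were lower.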

How the data were processed

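KO and WT macrophages each gave an IP and an input library, 4 in all, grouped by sample title. Without roles, edgeR, HOMER, HISAT2, ChIPseeker, fastp, StringTie and the build mm10 stand in the submitters' processing notes. The peak caller was not given in the sources used here. Per the file headers, each deposited peak list gives a p-value and the ratio (fold) of IP over input for peaks called on 1 library pair. The deposited differential table gives, per the file headers, a log2 ratio of KO over WT enrichment, its p-value and its false discovery rate, and also input FPKM for genes with a listed peak. Sequencing strand was not used.

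File starts count from 0 and are printed from 1. Overlap means at least 1 shared exonic base. Gene extents came from RefSeq GRCm38.p6. Input differences are on the log2(FPKM + 1) scale for genes averaging 1 FPKM or more, a scale that understates low genes, and a difference counted past 1.5-fold on it. Genes were named by rule: the stalk genes, Rpsa and paralogs, the 10 highest and lowest ratios, the 10 most enriched per list, the 5 largest input increases and decreases, and genes with peaks both ways. Others were chosen after their values were seen. Results for a few members are not reported here. Members and lists were chosen with earlier results of these data known. The overlap search and the intervals were tested on simulated data, and the count of directions was not. Python 3.11.15, pandas 2.3.3 and scipy 1.17.1 were used. Alternatives were stricter ratios, false discovery rates, folds and p-values, peaks inside their gene, 1 value per gene, centring, other pseudocounts and filters, and other membership.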

Additional observations from a re-analysis of the deposited data

How the results depend on the processing

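The count of 44 higher and 3 lower peaks in ribosomal protein genes stayed within 1.5 times of itself with a false discovery rate under 0.05, with 1 value per gene, set against the table's median, without Rpl7a, and with peaks inside their gene only. With an absolute log2 ratio of at least 1, 2 were higher and 0 lower (100% higher), and 4 pseudogene peaks were lower. Of pseudogene peaks inside the named copy, 5 were lower. Adding the list of ribosomal components under other symbols gave 5 lower peaks, 2 of them the entries assigned to Rpl36al over almost the same bases. With a peak p of 1e-10 or lower, 13 genes had a WT peak and 81.3% of KO peaks lay in the 3′ UTR. With at least 4-fold enrichment, 12 genes had a KO peak and 7 a WT peak, and the 3′ UTR held 53.8% of KO peaks and 33.3% of WT peaks. Minus the median of all listed genes, the input median was -0.10. Set against the table's median, the pseudogene split turned to 7 higher and 6 lower, against 5 and 8. Of 59 recomputed values, 13 moved, and the causes were not tested. No paired analysis was possible because each group is 1 library, and for the same reason no library could be left out. Unknown depth and single libraries limit every comparison.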
